A study of Mus musculus with 24 samples.

Results

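RNA of newborn lens fibers was set against RNA of embryonic forebrain, gene by gene, to describe what lens fiber cells express beyond their crystallins. A gene was taken when it reached 1 RPKM (reads scaled for gene length and library size) in either library, which gave 12205 genes. The 16 alpha, beta and gamma crystallins among them were set aside, leaving 12189 of the 23947 symbols in the table. Lens fibers came from CD-1 mice at P1 and forebrain from CD-1 mice at E12.5, with 1 total RNA library for each tissue. A library of P1 lens epithelium from the same strain is given beside them. Ratios are log2((RPKM + 1)/(RPKM + 1)) of fibers over forebrain and shrink toward 0 where values are low. With 1 library a tissue there is no replicate, so no test was made and no value has an error, and the groups differ in both tissue and age, which cannot be told apart.

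The lens grows throughout life as epithelial cells at its equator leave the cell cycle, elongate and become fibers. Fibers fill with crystallins, build a membrane of connexin channels and aquaporin, replace part of their cytoskeleton with beaded filaments, and then lose nuclei, mitochondria and endoplasmic reticulum, so that light can pass. The embryonic forebrain at this stage holds dividing neural progenitors and newly born neurons, and it shares with the lens the transcription factor Pax6. In bulk RNA of this kind, fewer cells of a type and less RNA per cell cannot be told apart.

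At least 4-fold higher in fibers were 761 genes (6.24% of those compared) and at least 4-fold lower were 1387 (11.4%). At 2-fold the counts were 1926 higher (15.8%) and 3860 lower (31.7%), and the median ratio of all 12189 genes was -0.41. Of the 646 genes that reached 100 RPKM in the higher library, 25.7% were at least 4-fold higher in fibers and 16.6% at least 4-fold lower. Crystallins took 85.5% of all protein-coding RPKM in fibers, 9.08% in epithelium and 0.0411% in forebrain, and the remaining protein-coding genes summed to 306298, 217442 and 261873 RPKM in the same libraries. Fiber markers outside the crystallins were high in fibers. The epithelial markers Foxe3 (0.433 RPKM in fibers and 19.4 in epithelium), Pdgfra (2.47 and 52.9 RPKM) and Cdh1 (0.940 and 62.3 RPKM) were low there. Genes of a wider epithelium list were not uniformly low. Npnt (1.73 and 37.7 RPKM), Slc38a3 (5.25 and 83.1 RPKM), Ptgds (1.18 and 64.8 RPKM) and Apoe (7.64 and 285 RPKM) were lower in fibers. Igfbp7 (729 and 716 RPKM) and Sparc (379 and 544 RPKM) were near level, and Clu (450.5 and 238 RPKM) and Fgfr3 (215.7 and 56.9 RPKM) were higher in fibers. The forebrain marker Emx1 (listed at 0 in fibers and at 76.0 in forebrain) followed its label.

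The deposited values were not scaled to equal sums, since all RPKM summed to 2603160 in fibers, 587475 in epithelium and 598020 in forebrain. Scaling fibers to the forebrain sum over all genes moved the median ratio to -1.71 and the counts at 4-fold to 195 higher and 4482 lower, and scaling over genes outside the crystallins moved the median to -0.75. Ratios below are for the values as deposited and are to be read against the median of -0.41. Counts within gene lists at 2-fold are likewise to be read against 15.8% higher and 31.7% lower of all genes. Counts at 4-fold within gene families, histones included, are to be read against 6.24% higher and 11.4% lower. Where equal sums over all genes turned the balance of a gene list, this is said with its count as "equal library sums". Of 17 housekeeping genes, 5 were at least 2-fold higher and 2 lower (median 0.35), and with equal library sums 0 and 12. Short genes with a single coding exon showed what 1 read was worth. It was about 0.145 RPKM for 1 kb of transcript in fibers, 0.0501 in epithelium and 0.0802 in forebrain, so that 1 RPKM over 2 kb stood for about 13.8, 39.9 and 24.9 reads, and low values were coarsest in fibers.

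**Figure D1:**
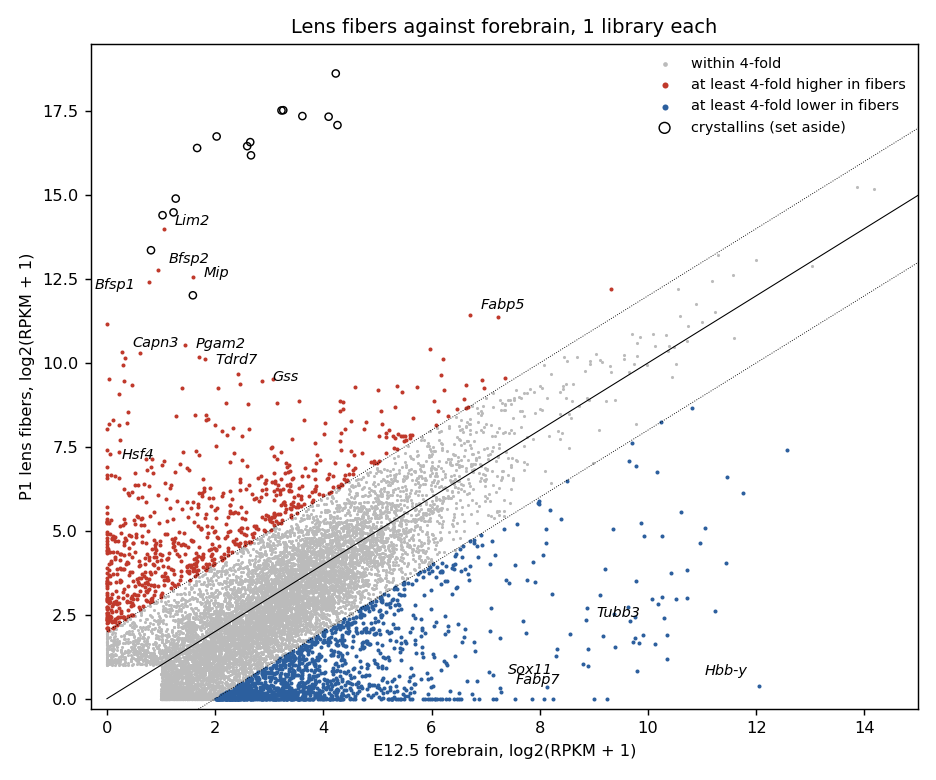
Each point is a gene with at least 1 RPKM in lens fibers (vertical axis) or forebrain (horizontal axis), both as log2(RPKM + 1), with 1 library per tissue; dotted lines mark 4-fold. The 761 genes in red lie at least 4-fold higher in fibers and the 1387 in blue at least 4-fold lower, while the 16 crystallins (open circles) were set aside.

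Genes of the fiber membrane and of the beaded filament led the comparison. Lim2, a junctional protein of fiber membranes, had 16276 RPKM in fibers, 286 in epithelium and 1.07 in forebrain, a log2 ratio of 12.94. Bfsp2 (phakinin) and Bfsp1 (filensin), the subunits of the beaded filament, followed. Bfsp2 had 6941 RPKM in fibers, 132 in epithelium and 0.921 in forebrain (11.82), and Bfsp1 had 5501, 10.6 and 0.719 RPKM in the same libraries (11.64). Mip, the water channel aquaporin 0, stood at 5994 RPKM in fibers, 90.4 in epithelium and 2.01 in forebrain (10.96). These 4 genes were also the 4 most abundant protein-coding transcripts of fibers outside the crystallins. Grifin, a galectin-related protein found between fibers, had 2298 RPKM in fibers and 225 in epithelium and was listed at 0 in forebrain. The 10 most abundant such genes held 17.0% of protein-coding RPKM outside the crystallins in fibers, 6.56% in epithelium (its own 10) and 11.3% in forebrain.

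The promoters of genes at the head of the list are shown because several carried the letters TGCTGA, the core of the sequence bound by Maf proteins. Of the 15 genes with the highest ratios, RefSeq held promoters for 13, and 7 of these genes carried it in the 250 bases before a start. Of all 16328 protein-coding genes with a promoter, 16.8% carried it on either strand. A gene with several starts was counted once, as a carrier if any start had it. Among genes at least 64-fold higher in fibers (0.427% of those compared) 13 of 39 carried it (33.3%), and among genes at least 4-fold higher 120 of 579 (20.7%). Among genes at least 4-fold lower it was 160 of 1025 (15.6%), and among crystallins 10 of 15 (66.7%). The sequences are from RefSeq on build GRCm38.p6, read 5′ to 3′ toward the gene, and capitals mark TGCTGA, written TCAGCA where it lies on the other strand. Lim2 lies at chr7:43429849-43430098 (plus strand), Bfsp1 at chr2:143863174-143863423 (minus strand), Mip at chr10:128225560-128225809 (plus strand), and the downstream of 2 starts of the calpain gene Capn3 at chr2:120476659-120476908 (plus strand).
Lim2: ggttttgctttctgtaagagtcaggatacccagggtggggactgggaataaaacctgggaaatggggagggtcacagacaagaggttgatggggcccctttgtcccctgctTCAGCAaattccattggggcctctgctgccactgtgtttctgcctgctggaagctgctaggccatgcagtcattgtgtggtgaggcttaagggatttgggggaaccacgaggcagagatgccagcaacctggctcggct
Bfsp1: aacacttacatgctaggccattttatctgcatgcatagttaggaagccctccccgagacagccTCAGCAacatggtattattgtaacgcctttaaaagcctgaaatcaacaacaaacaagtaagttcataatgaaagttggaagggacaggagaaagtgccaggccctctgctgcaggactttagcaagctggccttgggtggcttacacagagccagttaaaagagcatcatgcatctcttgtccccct
Mip: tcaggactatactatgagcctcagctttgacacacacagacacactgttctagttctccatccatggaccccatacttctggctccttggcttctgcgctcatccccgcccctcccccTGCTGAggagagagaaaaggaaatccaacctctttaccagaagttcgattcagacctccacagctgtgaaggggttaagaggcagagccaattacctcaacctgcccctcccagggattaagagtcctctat
Capn3: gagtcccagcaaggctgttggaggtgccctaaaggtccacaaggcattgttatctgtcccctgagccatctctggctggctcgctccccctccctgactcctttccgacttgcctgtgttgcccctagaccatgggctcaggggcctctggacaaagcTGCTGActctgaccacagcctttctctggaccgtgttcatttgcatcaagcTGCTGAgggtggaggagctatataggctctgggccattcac
The letters began at base -139 in Lim2, -187 in Bfsp1, -132 in Mip, and -92 and -41 in Capn3, where -1 is the last base before the start. Lenep, Pgam2 and, at the upstream of 2 starts only, Tmem40 also carried them, and Aldh1a1, Bfsp2, Gja3, Grifin, Mgarp and Nupr1 did not. In all, 15 motifs, chosen with the values known, were searched on both strands. The others included TGCTGAC and longer Maf elements with and without a spacer, all of which overlap the core, GAANNTTC with its inverse TTCNNGAA and a longer element for heat shock factors, CATTGT with the longer ACAATGG for Sox proteins, and GTTTAC for forkhead proteins. CACGTG for E-box proteins with the contained ACGTG for hypoxia factors, TATAAA for the TATA box, GCGGAA for ETS proteins, and TTACGCAT for paired-domain proteins completed them. Each of these was in the promoters of at most 3 of the 13 genes. A match describes letters only, and a missing match says only that the letters are not in this window.

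**Figure D2:**
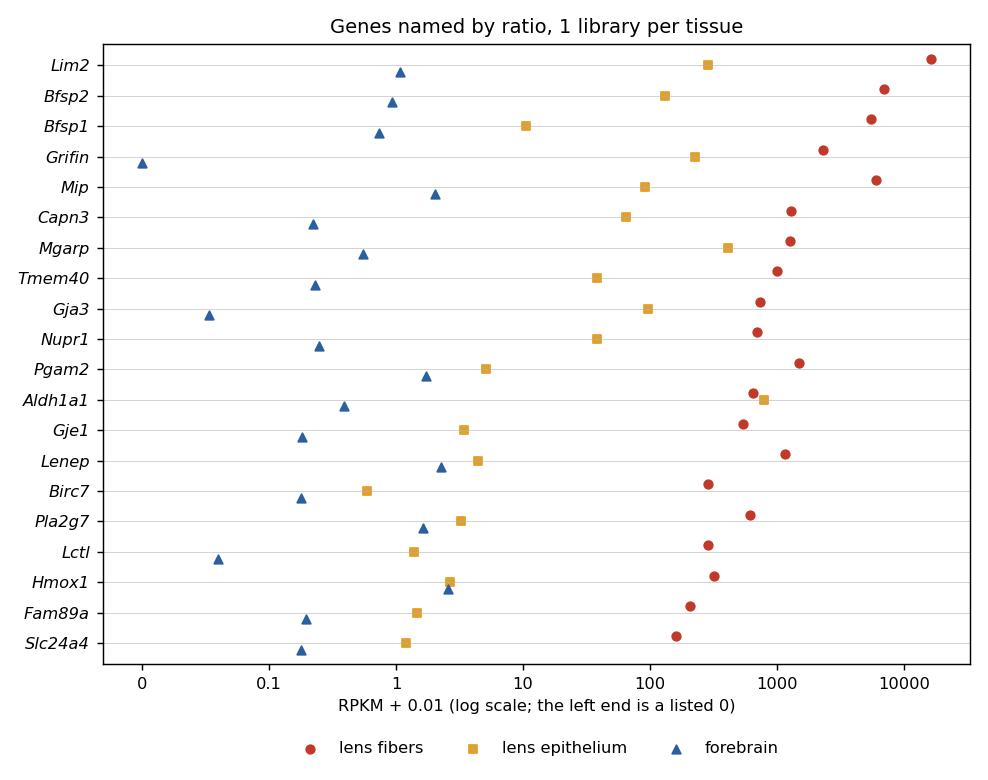
RPKM on a log scale, with 0.01 added, of 20 genes with the highest ratios over forebrain or over epithelium, in fibers (circles), epithelium (squares) and forebrain (triangles), 1 library each. Every gene lies highest in fibers except Aldh1a1, at 643 RPKM in fibers and 784 in epithelium; Grifin is listed at 0 in forebrain.

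Of 9 fiber membrane genes that reached 1 RPKM, 7 were at least 2-fold higher and 1 lower, with a median ratio of 8.84. The connexins differed in direction by member. Gja3 (connexin 46) had 731 RPKM in fibers, 96.2 in epithelium and 0.0239 in forebrain (9.48). Gje1, a connexin gene of the lens, had 536 RPKM in fibers, 3.44 in epithelium and 0.171 in forebrain (8.84). Gja3 held 30.4% and Gje1 22.3% of the summed connexin RPKM in fibers. Gja1 (connexin 43), which couples epithelial cells and neural progenitors, had 0.440 RPKM in fibers, 98.8 in epithelium and 16.4 in forebrain (-3.59), and Gjc1 (connexin 45) had 0.898, 13.6 and 22.8 RPKM (-3.65). Gja1 and Gjc1 held 35.8% and 49.9% of connexin RPKM in forebrain. Lctl, a klotho-family membrane protein, had 288 RPKM in fibers, 1.38 in epithelium and 0.0294 in forebrain (8.13), and the exchanger gene Slc24a4 had 161, 1.19 and 0.167 RPKM (7.12). Aqp5, another water channel, was low at 4.22 RPKM in fibers and 0.266 in forebrain (2.04), and the potassium channel gene Kcnk2 was the member that was lower (0.0638 RPKM in fibers and 1.68 in forebrain, -1.33).

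The cytoskeletal genes were higher in fibers for 18 of 25 members and lower for 4, with a median of 3.05. The membrane skeleton stood out. Of 5 spectrin genes that reached 1 RPKM, 4 were at least 4-fold higher. Alpha spectrin Sptan1 had 791 RPKM in fibers, 127 in epithelium and 71.4 in forebrain (3.45), and Sptb, the beta spectrin also used by red cells, had 138.9, 42.1 and 0.659 RPKM (6.398). The list of genes of the red-cell membrane and heme synthesis had 1 member higher and 7 lower of 11. Ank2 (ankyrin B), which anchors spectrin, had 205.0 RPKM in fibers, 65.1 in epithelium and 18.7 in forebrain (3.39). Linker proteins of filaments and membrane were also higher, among them periaxin, Prx (117.5 RPKM in fibers, 10.8 in epithelium and 0.748 in forebrain, 6.08), synemin, Synm (105.1, 2.87 and 0.442 RPKM, 6.201), and plectin, Plec (112.2, 20.7 and 1.86 RPKM, 5.31).

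Tropomodulins cap the slow-growing ends of actin filaments, and their members differed in direction. Tmod1 had 24.4 RPKM in fibers, 0.575 in epithelium and 0.248 in forebrain (4.35), while Tmod3 had 0.582, 6.14 and 12.9 RPKM (-3.14) and Tmod2 had 2.97, 1.23 and 11.8 RPKM (-1.69). Tmod1 thereby held 86.0% of tropomodulin RPKM in fibers and 0.973% in forebrain. Among alpha actinins, the muscle form Actn2 (19.7 RPKM in fibers, 0.166 in epithelium and 0.0463 in forebrain, 4.31) held 65.0% of the family in fibers and 0.518% in forebrain. Nestin, Nes, an intermediate filament of neural progenitors, was lower (2.86 RPKM in fibers, 24.2 in epithelium and 58.2 in forebrain, -3.94), and vimentin, Vim, shared by both tissues, had 1169 RPKM in fibers, 945 in epithelium and 411 in forebrain (1.504).

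Enzymes and other proteins linked to fibers were higher for 9 of 13 members and lower for 2 (median 3.52). Capn3, a calcium-dependent protease with a lens-specific form, had 1282 RPKM in fibers, 64.8 in epithelium and 0.213 in forebrain (10.05). Birc7 (livin), of the inhibitor of apoptosis family, had 283.7 RPKM in fibers, 0.583 in epithelium and 0.168 in forebrain (7.93). Both are among the genes that separated fibers from epithelium as well as from forebrain. Pla2g7, which hydrolyses platelet-activating factor, followed the same order with 613 RPKM in fibers, 3.21 in epithelium and 1.63 in forebrain (7.87). Dnase2b, the acid nuclease that degrades nuclear DNA of fibers, had 51.6 RPKM in fibers and 0.150 in epithelium and was listed at 0 in forebrain. Lgsn, the glutamine synthetase relative lengsin, was also listed at 0 in forebrain, at 10.5 RPKM in fibers. Car2 (carbonic anhydrase) and Ddah1 were the members that were lower, at 2.69 and 2.30 RPKM in fibers against 19.4 and 16.2 in forebrain (-2.47 and -2.38).

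Among further genes with the highest ratios, Lenep, a small lens protein, had 1150.4 RPKM in fibers, 4.42 in epithelium and 2.24 in forebrain (8.47). Mgarp, a mitochondrial protein, had 1262 RPKM in fibers, 413 in epithelium and 0.536 in forebrain (9.68). Tmem40, a membrane protein, had 989.96, 38.4 and 0.221 RPKM (9.66), and Nupr1, a stress-induced nuclear protein, had 697, 37.9 and 0.238 RPKM (9.14). The retinaldehyde dehydrogenase gene Aldh1a1 had 643 RPKM in fibers, 784 in epithelium and 0.378 in forebrain (8.87), so fibers and epithelium were alike in it. Of the lens epithelium list, 7 of 13 members were higher and 2 lower in fibers than in forebrain, led by Aldh1a1, Clu (450.5 RPKM in fibers, 238 in epithelium and 3.62 in forebrain, 6.61) and Igfbp7 (729, 716 and 7.39 RPKM, 6.44).

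Transcription factors of the lens were higher in fibers for 9 of 23 members and lower for 7 (median 0.71), and with equal library sums for 5 and lower for 11. Hsf4, the heat shock factor of lens fibers, had the highest ratio, with 156.5 RPKM in fibers, 1.34 in epithelium and 0.0465 in forebrain (7.23). Maf, an activator of crystallin genes, had 162 RPKM in fibers, 29.9 in epithelium and 1.65 in forebrain (5.95), and Prox1, needed for fiber elongation, had 122.5, 35.1 and 1.03 RPKM (5.92). All 3 followed the order fibers, epithelium, forebrain. Hmx1 (97.9 RPKM in fibers, 74.8 in epithelium and 0.110 in forebrain, 6.48) was nearly level within the lens. So was Pitx3, at 37.3 RPKM in fibers and 35.0 in epithelium and listed at 0 in forebrain. Mafg, a small Maf partner, had 39.8 RPKM in fibers, 16.3 in epithelium and 6.94 in forebrain (2.36).

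Pax6, which both tissues need, was close to level between them, at 24.02 RPKM in fibers, 142 in epithelium and 28.1 in forebrain (-0.22). Its partner Sox2 was lower in fibers (8.76 RPKM, against 32.3 in epithelium and 86.4 in forebrain, -3.16), and Sox1, a relative that acts in fibers, had 48.5 RPKM in fibers, 11.6 in epithelium and 13.1 in forebrain (1.81). Sox1 held 68.9% of the summed RPKM of Sox genes in fibers and 3.42% in forebrain, where Sox11 (40.1%) and Sox2 (22.6%) led. Of 13 Sox genes that reached 1 RPKM, 9 were at least 4-fold lower and 0 at least 4-fold higher. The shares over all genes compared were 11.4% and 6.24%. Sox11 had 0.246 RPKM in fibers and 153 in forebrain (-6.95). The Id genes, inhibitors of basic helix-loop-helix factors, also differed by member. Id1 (294 RPKM in fibers, 85.9 in epithelium and 15.3 in forebrain, 4.18) and Id2 (307, 28.8 and 21.8 RPKM, 3.76) were higher, and Id4, a gene of neural progenitors, was lower (4.01, 2.40 and 205 RPKM, -5.36). Shares within a family do not depend on how the libraries are scaled; the families described here were chosen with their values known.

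**Figure D3:**
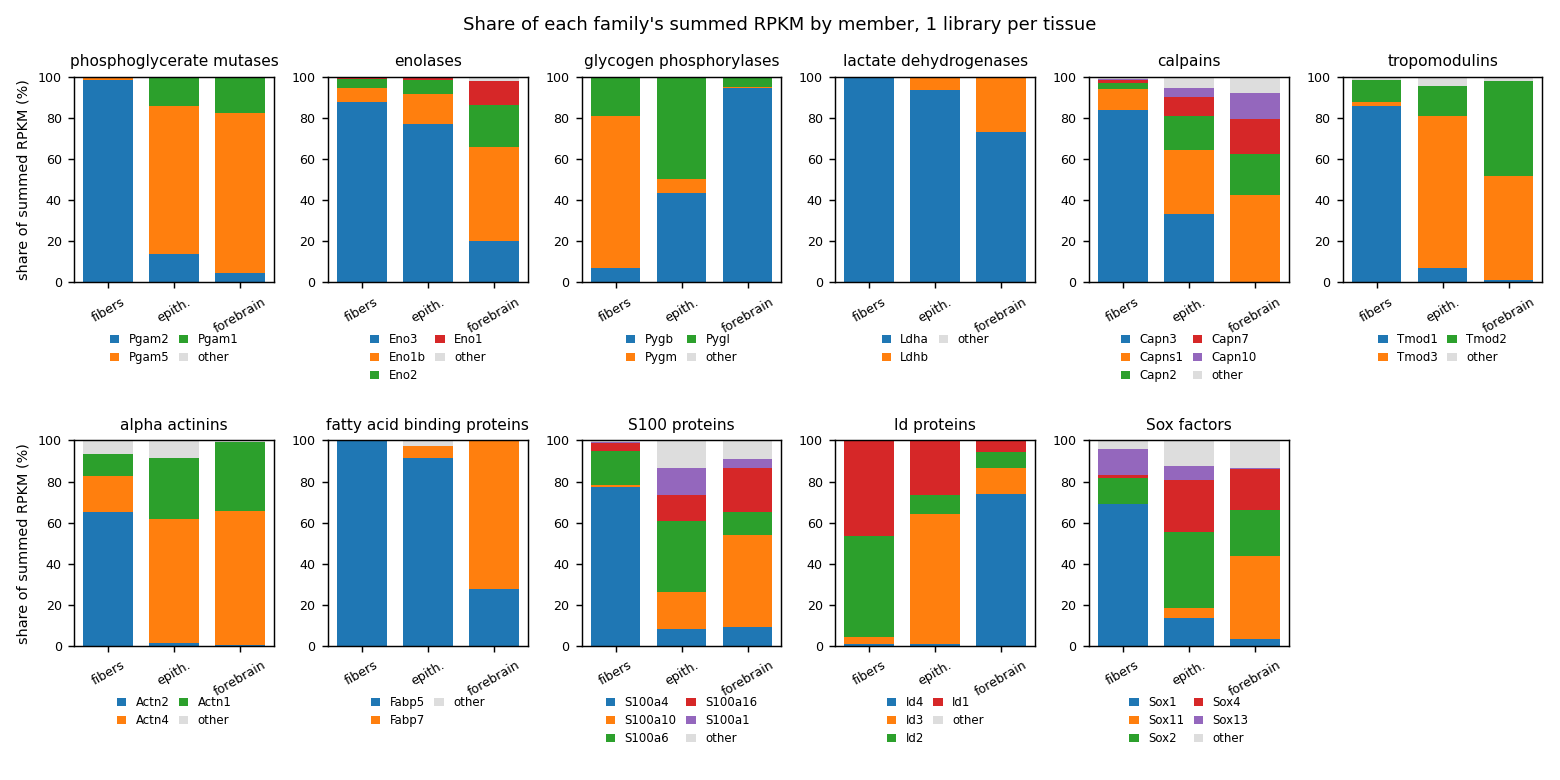
Share (%) of the summed RPKM of 11 gene families held by each member in fibers, epithelium and forebrain, 1 library each; members under 10% in all libraries are pooled as other. In the panel of phosphoglycerate mutases, grouped by symbol, Pgam2 holds 98.5% in fibers and 4.57% in forebrain, where Pgam5 holds 78.1%. Tmod1 holds 86.0% of tropomodulin RPKM in fibers and 0.973% in forebrain.

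RNA-binding proteins named in lens fibers were higher for 6 of 12 members and lower for 5 (median 0.94), and with equal library sums for 3 and lower for 6. Tdrd7, a Tudor domain protein of RNA granules whose loss causes cataract, had 1121 RPKM in fibers, 21.5 in epithelium and 2.49 in forebrain (8.33). Caprin2 (349 RPKM in fibers, 6.75 in epithelium and 2.54 in forebrain, 6.63) and Rbm24 (126.7, 25.3 and 1.54 RPKM, 5.65) showed the same order. Celf1 had 127.6 RPKM in fibers, 55.4 in epithelium and 29.7 in forebrain, a ratio of 2.07 that became -0.019 with equal library sums. The splicing regulators Rbfox2 (1.29 RPKM in fibers, 9.25 in epithelium and 34.4 in forebrain, -3.95) and Rbm20 (0.988, 4.103 and 8.15 RPKM, -2.20) were lower.

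Genes of the lens capsule, the basement membrane around the lens, were higher in fibers for 12 of 17 members and lower for 3 (median 2.34). The type IV collagen genes Col4a2 (470.4 RPKM in fibers, 532 in epithelium and 10.8 in forebrain, 5.32) and Col4a6 (76.9, 55.4 and 1.24 RPKM, 5.12) and nidogen, Nid1 (223.6, 235 and 4.64 RPKM, 5.32), had the highest ratios. Fibers and epithelium were close for these 3 genes. Agrn (0.857 RPKM in fibers, 19.99 in epithelium and 22.3 in forebrain, -3.65), Col18a1 (1.26, 68.7 and 10.9 RPKM, -2.39) and Nid2 (0.0918, 4.59 and 3.11 RPKM, -1.91) were lower. Adhesion genes were higher for 8 of 17 members and lower for 2 (median 0.70), and with equal library sums for 4 and lower for 8. The ephrin receptor gene Epha2 led (42.5 RPKM in fibers, 6.84 in epithelium and 0.744 in forebrain, 4.64), followed by the desmosomal gene Pkp2 (21.7, 3.77 and 0.330 RPKM, 4.09) and the neuronal adhesion gene Nrcam (103.9, 5.45 and 7.47 RPKM, 3.63).

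**Figure D4:**
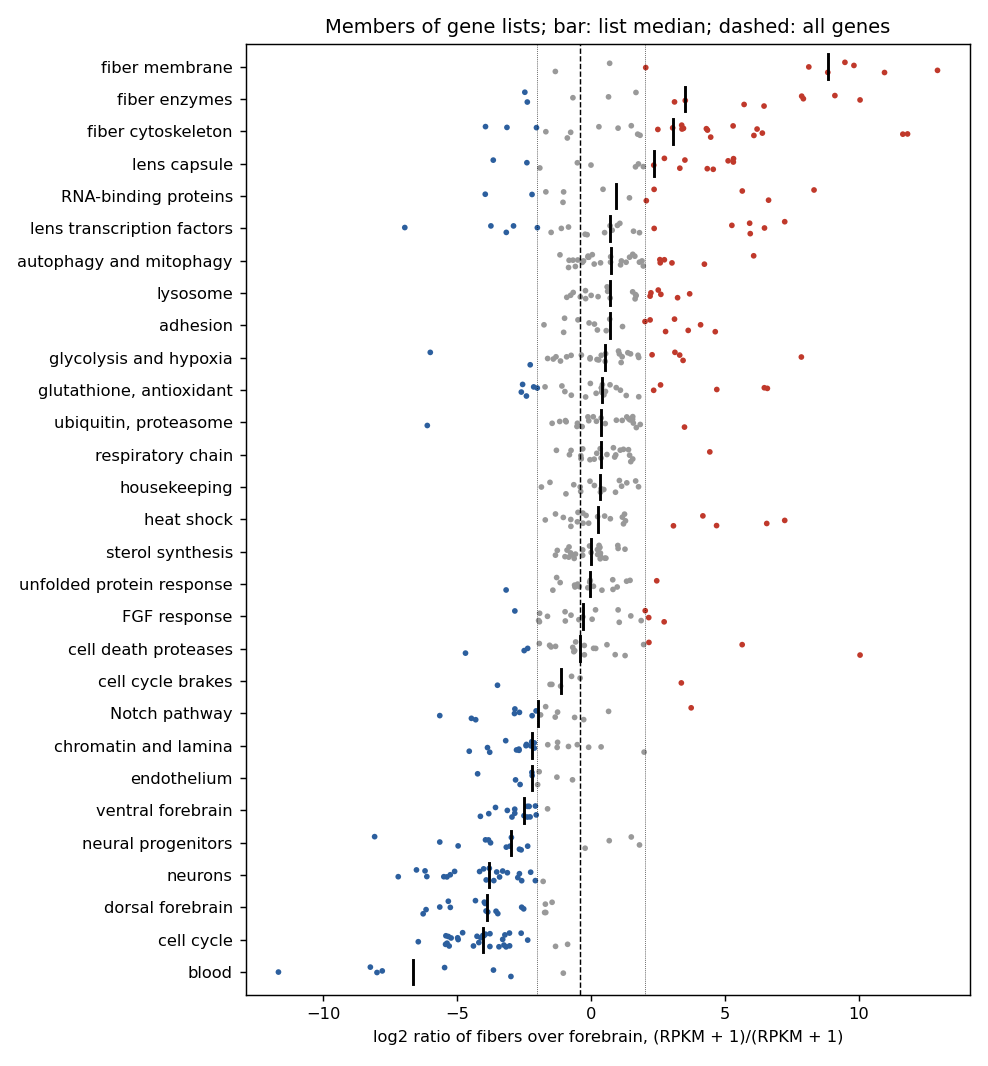
Log2 ratios of fibers over forebrain for the members of 29 gene lists with at least 1 RPKM in either library, 1 point per gene (red at least 4-fold higher, blue at least 4-fold lower); bars are list medians and the dashed line is the median of all 12189 genes, -0.41. Fiber membrane lies highest (median 8.84) and blood lowest (-6.63).

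Fibers clear their organelles, and genes of autophagy and mitophagy were examined as a group. Of 31 members, 15 were at least 2-fold higher and 1 lower (median 0.73), whereas with equal library sums 4 were higher and 15 lower. The group median stayed above that of all genes, by 1.15 as deposited and by 0.62 with equal sums. This was not particular to the group. In the same settings the median of lysosomal genes lay above by 1.13 and 1.11. For housekeeping genes it was 0.77 and 0.0076, and for respiratory chain genes 0.79 and 0.052. Other lists lay below, such as cell division genes (-3.60 and -3.06). Optn (optineurin), a receptor that delivers cargo to autophagosomes, had 111 RPKM in fibers, 7.86 in epithelium and 0.664 in forebrain (6.07). Wipi1, which marks forming autophagosomes, had 30.8, 8.82 and 0.687 RPKM (4.23), and Tfeb, a transcription factor of lysosomal genes, had 10.3, 5.66 and 0.393 RPKM (3.02). Gabarapl1, of the family that coats autophagosomes, had 238 RPKM in fibers, 28.7 in epithelium and 34.8 in forebrain (2.74). Its relatives were near level, with Gabarap at 113 RPKM in fibers and 109 in forebrain (0.05) and Map1lc3b at 21.6 and 30.9 RPKM (-0.49). Atg9a (26.4 RPKM in fibers, 5.38 in epithelium and 3.56 in forebrain, 2.59) and the lipoxygenase gene Alox15 (5.26 RPKM in fibers, listed at 0 in epithelium and at 0.0532 in forebrain, 2.57) were higher as well. The mitophagy receptors Bnip3 (30.02 RPKM in fibers and 7.02 in forebrain, 1.95) and Bnip3l (55.4 and 24.7 RPKM, 1.14) lay within 4-fold, and Atg5 was the member at least 2-fold lower (5.09 and 12.6 RPKM, -1.16).

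Lysosomal genes were higher for 10 of 21 members and lower for 0 (median 0.72), and with equal library sums for 2 and lower for 10. The protease gene Ctsd led with 566 RPKM in fibers, 326 in epithelium and 43.1 in forebrain (3.68), followed by the glycosidase gene Gaa (32.9, 29.1 and 4.56 RPKM, 2.61). Genes of ubiquitin conjugation and the proteasome were higher for 10 of 25 and lower for 3 (median 0.38), and with equal library sums for 1 and lower for 14. Their leader Ube2o, a ubiquitin ligase that remodels the proteome of maturing red cells, had 84.3 RPKM in fibers, 5.83 in epithelium and 6.59 in forebrain (3.49). The mitotic member Ube2c was lowest (0.177, 13.5 and 80.4 RPKM, -6.11).

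Cell death proteases did not move as a group, with 5 of 22 higher, 7 lower and a median of -0.41, equal to that of all genes; with equal library sums 2 were higher and 15 lower. Casp6, a caspase, had 0.152 RPKM in fibers, 3.08 in epithelium and 3.39 in forebrain (-1.93), and Apaf1, the scaffold of the apoptosome, had 0.567, 5.36 and 7.07 RPKM (-2.36). Among calpains, Capn3 held 84.0% of RPKM in fibers and 0.260% in forebrain, where the shared small subunit Capns1 held 42.1%.

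Genes of glycolysis and the hypoxia response were higher for 13 of 29 members and lower for 6 (median 0.53), and with equal library sums for 4 and lower for 15. Several steps were led in fibers by the form known from muscle. Pgam2, the muscle phosphoglycerate mutase, had 1490 RPKM in fibers, 5.07 in epithelium and 1.70 in forebrain (9.11). The family was grouped by symbol. Of the summed RPKM of Pgam1, Pgam2 and Pgam5, Pgam2 held 98.5% in fibers and 4.57% in forebrain. In forebrain Pgam5 held 78.1% of this sum and Pgam1 17.3%, so the forebrain share rests mostly on Pgam5. Eno3, the muscle enolase, had 282 RPKM in fibers, 51.3 in epithelium and 3.01 in forebrain (6.14) and held 87.9% of enolase RPKM in fibers and 20.01% in forebrain. Pygm, the muscle glycogen phosphorylase, had 93.7, 5.18 and 0.171 RPKM (6.34), with 74.1% of its family in fibers and 0.549% in forebrain, where the brain form Pygb held 94.7%. Pgam1 and Eno1 have named copies elsewhere in the genome and their low values are uncertain. The shares given for the Pgam and enolase families are therefore uncertain too. The same holds for the level of Gapdh, listed at 0.573 RPKM in fibers, 0.199 in epithelium and 0.483 in forebrain.

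Lactate dehydrogenase genes were lower in level in fibers, where Ldha held 100% of the RPKM of its family, against 73.4% in forebrain. Ldhb, the heart-type form, was listed at 0 in fibers and had 11.6 RPKM in epithelium and 63.1 in forebrain, and Ldha had 56.0 RPKM in fibers, 174 in epithelium and 174 in forebrain (-1.62). Aldoc (300.1 RPKM in fibers, 107 in epithelium and 26.8 in forebrain, 3.44) and Aldoa (606, 173 and 124 RPKM, 2.28) were higher. Of genes known to respond to low oxygen, Ndrg1 (297 RPKM in fibers, 3.22 in epithelium and 0.287 in forebrain, 7.85) and the collagen prolyl hydroxylase gene P4ha2 (17.6, 25.7 and 0.873 RPKM, 3.31) were higher, whereas Egln3, Ankrd37 and Ddit4 lay between -0.74 and -1.31. Respiratory chain genes were higher for 7 of 23 members and lower for 1 (median 0.38), and with equal library sums for 1 and lower for 17. The complex I gene Ndufa1 stood apart from them at 1353 RPKM in fibers, 255 in epithelium and 61.5 in forebrain (4.44).

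Of 29 glutathione and antioxidant genes, 8 were higher and 7 lower (median 0.40), against 15.8% higher and 31.7% lower of all genes. With equal library sums 3 were higher and 18 lower. Gss, which makes glutathione in the last step of its synthesis, had 698 RPKM in fibers, 41.0 in epithelium and 6.28 in forebrain (6.59). The genes for the preceding step lay within 2-fold on this scale, Gclc at 13.5 RPKM in fibers and 9.85 in forebrain (0.42) and Gclm at 8.496 and 3.94 RPKM (0.94). Hmox1 (heme oxygenase) had 317 RPKM in fibers, 2.65 in epithelium and 2.58 in forebrain (6.47), and the transferase gene Gstp1 had 620.5, 41.7 and 23.0 RPKM (4.70). Thioredoxin and peroxiredoxin genes differed in direction. Txn1 (15.6 RPKM in fibers, 47.8 in epithelium and 72.1 in forebrain, -2.14), its reductase gene Txnrd1 (7.42, 23.2 and 43.8 RPKM, -2.41) and Prdx6 (5.86, 38.2 and 39.3 RPKM, -2.55) were lower. Prdx5 was higher (165 RPKM in fibers, 221 in epithelium and 65.8 in forebrain, 1.32), and Prdx1, Prdx2, Prdx3 and Srxn1 lay between -0.74 and 0.71.

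Heat shock genes were higher for 9 of 23 members and lower for 3 (median 0.25), and with equal library sums for 4 and lower for 14. The small heat shock proteins, relatives of the alpha crystallins, were among the leaders. Hspb3 had 93.5 RPKM in fibers and 0.802 in epithelium and was listed at 0 in forebrain, Hspb2 had 35.8 RPKM in fibers, 96.0 in epithelium and 0.426 in forebrain (4.69), and Hspb1 had 24.1, 1.19 and 0.388 RPKM (4.18). Hspb2 is the neighbour of Cryab, and the labels do not say how reads between them were assigned. Genes of the unfolded protein response (3 of 19 higher, 4 lower, median -0.05) and of sterol synthesis (3 of 27 higher, 2 lower, median 0.01) stayed near the bulk of genes, and with equal library sums 0 members of either were higher and 13 and 25 lower. Fabp5, a fatty acid binding protein, had 2760 RPKM in fibers, 37.1 in epithelium and 104 in forebrain (4.72), while Fabp7, its relative of radial glia, was listed at 0 in fibers, had 2.47 RPKM in epithelium and 269 in forebrain. The surface glycoprotein gene Cd24a had 2667 RPKM in fibers, 102 in epithelium and 148 in forebrain (4.16), and the calcium-binding S100a4 had 609, 12.8 and 3.13 RPKM (7.21).

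Signalling genes were lower or mixed. FGF drives fiber differentiation, and genes of its response were higher for 7 of 19 members and lower for 5 (median -0.30), and with equal library sums for 1 and lower for 12. The receptor gene Fgfr3 had 215.7 RPKM in fibers, 56.9 in epithelium and 47.6 in forebrain (2.16), the feedback inhibitor gene Spry2 had 13.5, 7.31 and 2.57 RPKM (2.03), and the phosphatase gene Dusp4 had 3.23, 1.27 and 29.4 RPKM (-2.84). Notch genes were lower for 12 of 16 and higher for 1 (median -1.97). The exception was the ligand Jag1, at 81.8 RPKM in fibers, 43.8 in epithelium and 5.19 in forebrain (3.74), whereas the ligand Dll1 (0.118, 6.92 and 23.7 RPKM, -4.47), the target Hes5 (0.294, 17.5 and 63.8 RPKM, -5.65) and the receptor Notch2 (0.891, 17.9 and 7.68 RPKM, -2.20) were lower.

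Cell division genes were lower in fibers with few exceptions. Of 30 members, 29 were at least 2-fold lower and 0 higher, with a median of -4.02. Top2a, the topoisomerase of dividing cells, had 0.616 RPKM in fibers, 39.7 in epithelium and 140.2 in forebrain (-6.45), and the mitotic kinase gene Cdk1 had 0.125, 20.8 and 47.5 RPKM (-5.43). Ccnd1, a cyclin of early G1, was the member within 2-fold (22.5, 57.0 and 42.1 RPKM, -0.87). Of the inhibitors of the cycle, Cdkn1c (p57), which acts as fibers leave it, had 412 RPKM in fibers, 295 in epithelium and 38.8 in forebrain (3.37). It was the member that was higher among 7, of which 4 were lower, including Cdkn1b (p27), at 15.4, 30.2 and 46.4 RPKM (-1.53), and Rbl1, at 0.251, 7.69 and 13.1 RPKM (-3.49).

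Replication-dependent histone genes, whose RNA is made in S phase and lacks a poly(A) tail, filled the bottom of the comparison. Of 57 clustered histone genes that reached 1 RPKM, 55 were at least 4-fold lower in fibers (median -6.85), and 8 of the 10 genes with the lowest ratios were histones. The 65 genes in the table summed to 1384 RPKM in fibers, 14285 in epithelium and 59670 in forebrain. Hist1h2af, for example, had 1.25 RPKM in fibers, 254 in epithelium and 1313 in forebrain (-9.19). Hist1h2bc was high in all libraries (300.6 RPKM in fibers, 328 in epithelium and 1206 in forebrain, -2.002), and Hist2h2be was near level (4.22, 3.92 and 7.92 RPKM, -0.77). Values of single histone genes are uncertain because the genes are near-identical copies. Chromatin and nuclear lamina genes were lower for 16 of 21 members and higher for 1 (median -2.21). The lamins separated, with A-type Lmna at 20.7 RPKM in fibers, 12.46 in epithelium and 4.50 in forebrain (1.98) and Lmnb1 at 3.20, 26.5 and 97.1 RPKM (-4.55).

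Genes that pattern the forebrain were lower in fibers throughout, in 18 of 18 dorsal members (median -3.89) and 15 of 15 ventral members (median -2.50). Lhx2, a homeobox gene of the cortical field, was listed at 0 in fibers and had 9.21 RPKM in epithelium and 70.5 in forebrain. The proneural gene Neurog2 had 0.106 RPKM in fibers, 0.423 in epithelium and 43.4 in forebrain (-5.33), and Isl1 of ventral neurons had 0.0331, 0.405 and 11.2 RPKM (-3.57). Neuron genes were lower for 23 of 23 members (median -3.80). Tubb3, the neuronal tubulin, had 4.04 RPKM in fibers, 6.23 in epithelium and 461 in forebrain (-6.52), and Stmn3 was listed at 0 in fibers against 145.8 RPKM in forebrain. Neural progenitor genes were lower for 12 of 16 and higher for 2, Sox1 and Vim; with equal library sums 14 were lower and 0 higher. Prom1 (0.0427 RPKM in fibers, 8.87 in epithelium and 31.5 in forebrain, -4.96) was among those that were lower.

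Most marker sums of other cell types were low in fibers. Blood genes summed to 6.55 RPKM in fibers, 346 in epithelium and 5943 in forebrain, and 8 of 8 members were lower in fibers, led by the embryonic globin Hbb-y (0.296 RPKM in fibers, 1.995 in epithelium and 4223 in forebrain, -11.67). Hba-x was listed at 0 in fibers and at 301 RPKM in forebrain, and with Hbb-y it was among the 10 lowest genes of the comparison. Endothelial markers summed to 1.78 RPKM in fibers, 118 in epithelium and 49.7 in forebrain, with Cdh5, Esam, Cldn5, Emcn and Eng listed at 0 in fibers. Myeloid markers summed to 1.37, 41.9 and 18.8 RPKM in the same libraries (Ptprc, Cx3cr1, C1qb, Tyrobp and Fcer1g listed at 0 in fibers), and mesenchymal markers to 2.99, 23.5 and 89.4 RPKM (Col1a1, Prrx1 and Lum listed at 0). Photoreceptor and retina markers summed to 2.90, 34.2 and 3.18 RPKM, and pigment and ciliary markers to 12.53, 182 and 42.0 RPKM, of which Mitf gave 9.57 RPKM in fibers. Cornea and surface markers summed to 11.2, 6.48 and 0.866 RPKM, of which Perp gave 11.1 RPKM in fibers, while Krt12, Krt13, Krt14 and Trp63 were listed at 0. The larger sums of the forebrain library move with the genes of blood and mesenchyme that were lower in fibers, and their part in other ratios was not tested.

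For the genes most abundant in fibers, forebrain values were small against the fiber level but not 0. For the 14 genes with at least 20000 RPKM in fibers, all of them crystallins, forebrain had between 2.51 and 13.1 RPKM for each 100000 RPKM in fibers, with a median of 5.10. For the 15 genes with the highest ratios the median was 22.5 RPKM per 100000, and Gja3 (3.27), Lim2 (6.60) and Bfsp1 (13.1) lay within the range of those crystallins, with Bfsp2 (13.3) just above it. Whether such values are forebrain transcripts was not tested, and the ratios of these 4 genes rest on them. At the other end, 12 protein-coding genes with at least 20 RPKM in fibers were listed at 0 in forebrain, led by Grifin, the acetylcholine receptor subunit gene Chrng (118 RPKM in fibers and 4.32 in epithelium) and Hspb3, and 23 genes showed the reverse, led by Hist1h2ag (601 RPKM in forebrain).

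**Figure D5:**
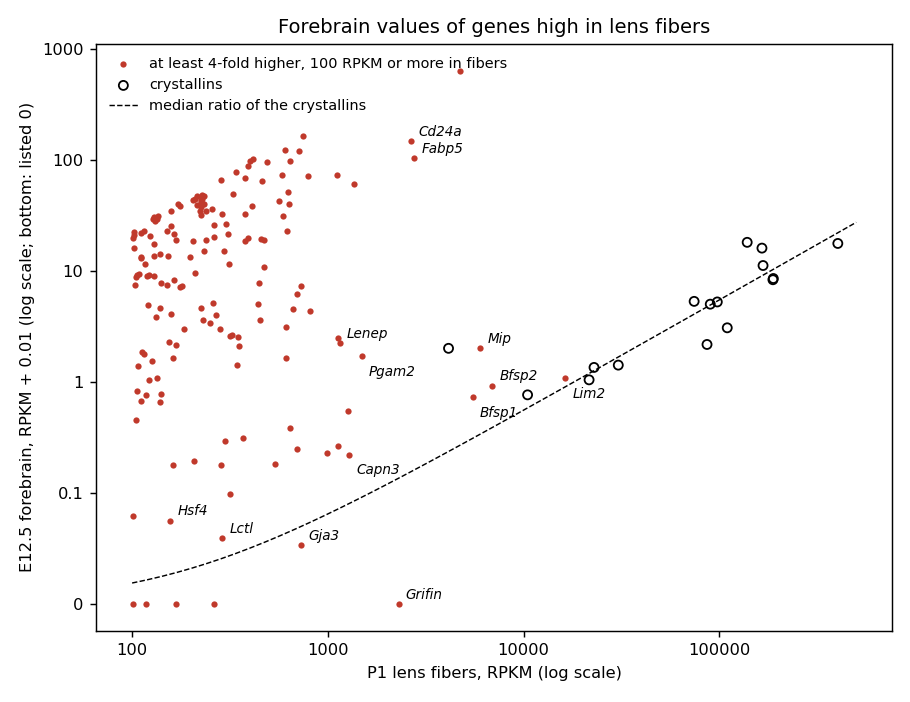
Forebrain RPKM (vertical, 0.01 added) against fiber RPKM (horizontal), both on log scales, for genes at least 4-fold higher in fibers with 100 RPKM or more there (red) and the crystallins (open circles), 1 library each. The dashed line is the median ratio of the 16 crystallins, 5.49 RPKM in forebrain per 100000 in fibers; Lim2 lies near it, while Mip, Pgam2 and Lenep lie above it.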

How the data were processed

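Expression was given as RPKM per gene symbol, as deposited by the authors, for 1 library each of P1 lens fibers, P1 lens epithelium and E12.5 forebrain. Total RNA was made into strand-specific dUTP libraries, per the labels' protocols. TopHat2, Cufflinks and Cuffdiff are named with mm9 in the submitters' processing notes, without their roles. The annotation, the handling of reads with several matches or between overlapping genes, any scaling between libraries, and the depth, are not stated there or in the labels.

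Genes with at least 1 RPKM in fibers or forebrain were compared by log2((RPKM + 1)/(RPKM + 1)), with 16 crystallins set aside, using Python 3.11.15 with pandas 2.3.3 and numpy 2.4.6, and were counted at a log2 ratio of 2 (4-fold) or, within 39 gene lists, of 1 (2-fold). No p-value was computed, since each tissue had 1 library. The calculation was checked on simulated data. Gene types and promoters came from RefSeq (GRCm38.p6), which matched 23792 of 23947 symbols. The genes named were the 15 highest and 10 lowest ratios and 10 highest levels at 20 RPKM or more among protein-coding genes, the 10 highest in fibers over epithelium, and the extreme members of each list. The values of some of these are not reported here. Genes, lists and families were chosen with earlier results of these data known. The ChIP and FAIRE lists of the series were not used here.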

Additional observations from a re-analysis of the deposited data

How the results depend on the processing

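The number of genes at least 4-fold lower in fibers was 1387 as reported and became 2661 with a pseudocount of 0.1 RPKM. With a pseudocount of 5 RPKM it was 404, and 403 genes, against 761, were at least 4-fold higher. With fibers scaled to the forebrain sum over all genes, 4-fold higher genes numbered 195 and 4-fold lower genes 4482, and 8 of the 39 lists, against 22, had more members 2-fold higher than lower. Of the single genes compared that were at least 4-fold apart as deposited, Celf1 changed sign there, at -0.019, and 61 fell within 4-fold. Another 107 genes within 4-fold as deposited passed it in the direction they had. A further 1 gene within 4-fold as deposited passed it there without keeping its direction. Other sign changes of genes that lay within 4-fold were not counted. Without a filter, with a filter of 5 RPKM, with equal sums outside the crystallins, with ratios centred on their median and with protein-coding genes only, these 3 counts stayed within 1.5 times. Equal sums over protein-coding genes outside the crystallins, chosen after seeing the data, gave 645 higher, 1536 lower and 17 lists. List medians changed side of the median of all genes for heat shock, unfolded protein, sterol and myeloid genes with equal sums over all genes. No paired analysis was possible because each tissue had 1 library and no result came from a test. Low values in fibers rest on few reads.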

Other observations

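The values in this part were chosen after they were seen. Several genes named for muscle or nerve stood high in fibers. The muscle potassium channel gene Kcnj12 had 36.8 RPKM in fibers, 28.9 in epithelium and 0.0320 in forebrain (log2 ratio 5.19), and the myosin gene Myh7b had 26.0, 0.215 and 0.0705 RPKM (4.66). The dopamine receptor gene Drd4 had 36.4 RPKM in fibers, 2.18 in epithelium and 0.266 in forebrain (4.88), and the melatonin receptor gene Mtnr1a had 29.0, 2.23 and 0.0445 RPKM (4.84).

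Genes of peptide hormones were listed in fibers. Gcg, the glucagon precursor, had 75.2 RPKM in fibers, 0.912 in epithelium and 0.247 in forebrain (5.93). Avp, the vasopressin precursor, had 37.3 RPKM in fibers and was listed at 0 in epithelium and forebrain, its relative Oxt had 15.4, 0.174 and 0.311 RPKM (3.64), and the neighbouring gene Mrps26 had 164, 20.5 and 21.8 RPKM (2.85). Whether reads of adjacent genes contribute was not tested. Around Mip, the genes Spryd4 (71.8 RPKM in fibers, 10.01 in epithelium and 7.45 in forebrain, 3.11), Gls2 (5.95, 0.508 and 0.387 RPKM, 2.33) and Timeless (47.8, 10.3 and 15.8 RPKM, 1.54) also stood above the median ratio. Over the genome, 134 of 988 neighbours of genes at least 4-fold higher were themselves at least 4-fold higher (13.6%), against 6.03% of all neighbours. Of neighbours of genes at least 4-fold lower, 314 of 1771 were lower (17.7%), against 10.8%. Clusters of related genes, such as the histones, were not removed from these counts, and each pair was counted from either side.

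Of 354 long noncoding RNAs, 28 stood 4-fold or more above forebrain in fibers (7.91%, against 6.24% of all genes compared) and 37 stood 4-fold or more below (10.5%, against 11.4%), shares near those of all genes. Malat1 had 4745 RPKM in fibers, 1603 in epithelium and 640.4 in forebrain (2.89), Snhg12 had 393, 27.8 and 19.7 RPKM (4.25), and Gm20757 had 101 RPKM in fibers and 0.414 in epithelium and was listed at 0 in forebrain. Ndufa1 (1353 RPKM in fibers, 255 in epithelium and 61.5 in forebrain) has the neighbour Rnf113a1, at 251, 6.74 and 3.37 RPKM (5.85).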
